A study of Mus musculus with 32 samples.

Results

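The genes described here are 47 axon guidance ligands and receptors, chosen as a list of gene symbols and found without exception among the 49671 genes of the count table. They comprise 12 semaphorins, 9 plexins and neuropilins, 9 Eph receptors, 5 ephrins, 2 netrins, 4 netrin receptors, 3 Slit genes and 3 Robo receptors, that is 22 ligands and 25 receptors. Their transcripts were counted by RNA-seq in 32 libraries of cultured mouse cortical neurons. The primary cultures came from wild-type C57BL/6 cortex of embryonic day 17 to 18 and were left untreated or exposed to one of 3 synthetic oligoribonucleotides for 6 h or 5 d, with 4 libraries in each of the 8 groups. One oligoribonucleotide carried the sequence of the microRNA miR-92a-1-5p, another that of miR-124-5p, and the third, Mut.oligo, was a mutated let-7b used as a control for sequence. The methods give a dose of 10 µg/mL, added to the medium. These cultures are neuron-enriched and not pure, so a transcript counted here can come from any cell in the dish.

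Axon guidance rests on pairs of ligand and receptor that steer the growth cone by attraction or repulsion. Semaphorins bind plexins, with neuropilins as co-receptors for most secreted class 3 members. Ephrins bind Eph receptor tyrosine kinases on the neighbouring cell and can signal in both directions. Netrin 1 attracts axons through DCC and repels them where UNC5 receptors take part, and Slit proteins repel axons through Robo receptors. In the developing cortex the same families also act in neuronal migration, dendrite growth and synapse formation.

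RefSeq on build GRCm38.p6 holds the mature microRNA after which one of the oligoribonucleotides is named, on the plus strand at chr14:115044437-115044459. It is shown because a microRNA that acts inside a cell pairs with messenger RNA through its seed, bases 2 to 8, given in capitals.
mmu-miR-92a-1-5p: aGGUUGGGauuugucgcaaugcu
The complement of that seed, CCCAACC, was searched on the sense strand of the longest annotated 3′ UTR of each gene (GENCODE M21 basic transcripts, GRCm38). It was found in 8 of the 47 guidance genes, or 17.02%, and in 8.70% of all 21669 genes with a 3′ UTR. The median 3′ UTR was 2515 bases among the guidance genes and 911 bases over all genes. Slit2 and Sema4d, which are taken up again with the miR-92a-1-5p libraries, each held 1 match. The Slit2 match lies at chr5:48305980-48305986 on the plus strand and the Sema4d match at chr13:51701580-51701586 on the minus strand. Each is shown with its flanks, the match in capitals.
Slit2: aataaaattatCCCAACCaaaagaagtat
Sema4d: gtagttgggctCCCAACCtcggatggtga
A match describes the letters only and is no evidence of pairing in these cultures.

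Total counts per library ran from 24514090 to 73626029, with a median of 43798676.5. Every guidance gene passed the filter on low counts, and the lowest count of any of them in any library was 9, for Robo3. The libraries came from 13 experiment batches named in the labels, 7 at 6 h and 6 at 5 d, with none at both times. The time in culture and the batch therefore cannot be told apart. The first principal component of all genes, with 62.1% of the variance, separated the 2 times.

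Levels were compared between genes as CPM per kb, the library-scaled count (CPM) over the kilobases of exon. Ranks within a family cover the listed genes only, and other members of these families were not ranked. In untreated cultures at 6 h, Efnb3, which encodes the transmembrane ephrin-B3, had the highest level of all 47 genes, 80.0 ± 5.2 CPM per kb (SD, n = 4). Sema7a, a membrane-anchored semaphorin, led its family at 44.3 ± 4.2 CPM per kb, and its libraries lay above those of the next semaphorin, Sema4f (12.8 ± 0.28). Plxna4, a plexin that transmits class 3 semaphorin signals, led the plexins and neuropilins at 39.6 ± 4.9, but its libraries overlapped with those of Plxna1 (34.96 ± 2.9). Among the Eph receptors Epha4 was highest at 23.2 ± 2.0, above Ephb2 in every library. Ntn1 (6.52 ± 1.1), Unc5a (12.2 ± 1.1) and Slit1 (14.6 ± 1.3) led the netrins, the netrin receptors and the Slit genes, without overlap with the next member. Robo2 (18.9 ± 2.1) and Robo1 (18.6 ± 2.7) did not differ beyond their spread, whereas Robo3 was listed at 0.0564 ± 0.013 CPM per kb.

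**Figure D1:**
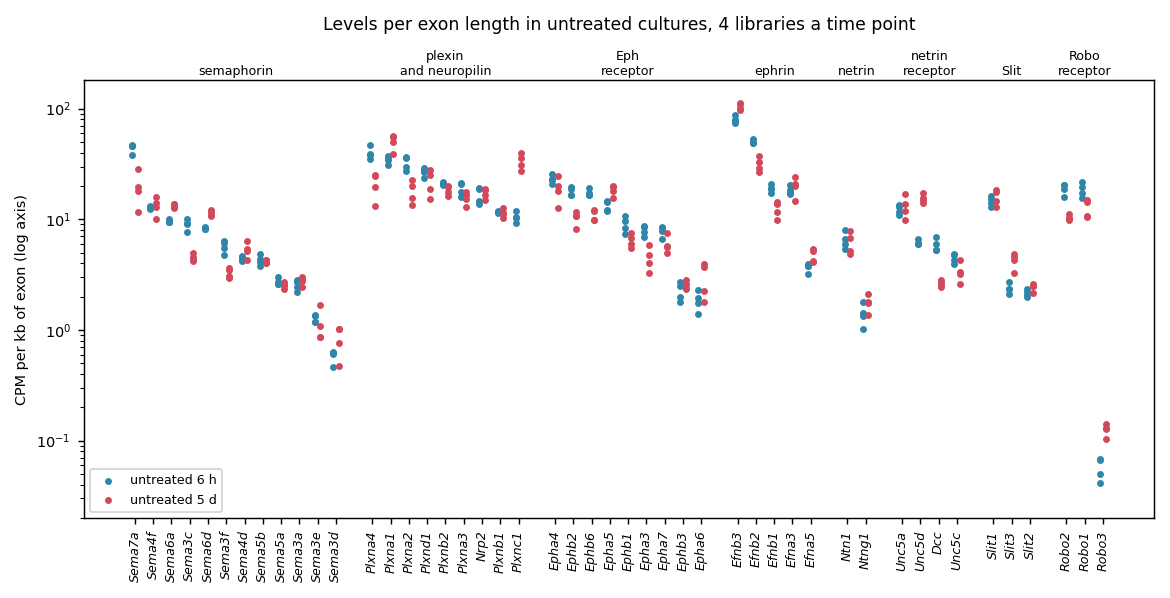
Level of each axon guidance gene in untreated cultures, as CPM per kb of exon on a log axis, with genes ordered within each family by their mean at 6 h. Each point is 1 library, 4 at 6 h (blue) and 4 at 5 d (red). Efnb3 stands highest and Robo3 lowest, and Plxnc1 moves from the lowest mean of its listed family at 6 h to the second highest at 5 d.

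Untreated libraries at 5 d held fewer transcripts of one set of guidance genes than those at 6 h, and more of a smaller one. Of the 47 genes, 14 fell and 5 rose (edgeR's quasi-likelihood test over all genes, with an adjusted p below 0.05 and a change of more than 0.5 on the log2 scale). That is 29.8% lower and 10.6% higher, beside 14.3% of all 20425 genes tested called lower and 19.1% called higher. Their median log2 fold change was -0.06, beside 0.04 over all genes. Sema7a, Dcc and Sema3c fell to 0.431, 0.435 and 0.488 of their level at 6 h, while the semaphorin receptor Plxnc1 rose 3.13-fold and the netrin receptor Unc5d 2.46-fold. In bulk RNA, fewer cells of a type and less RNA per cell cannot be told apart.

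**Figure D2:**
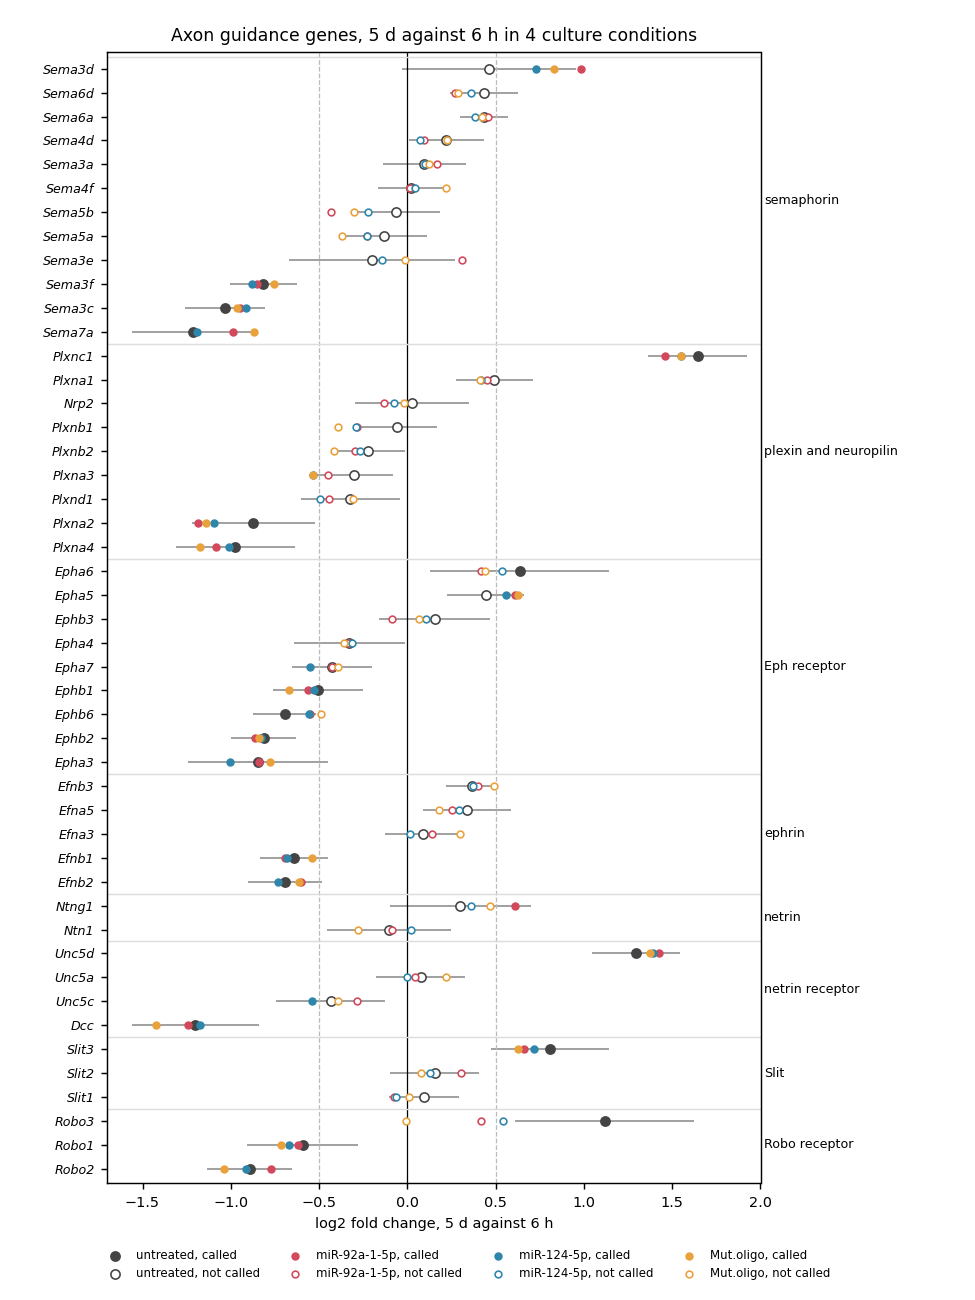
Log2 fold change of each axon guidance gene from 6 h to 5 d in untreated cultures (dark, with 95% intervals) and in cultures with miR-92a-1-5p, Mut.oligo or miR-124-5p, ordered by family. Filled points passed the test and dashed lines mark 0.5 in either direction. Plxnc1 and Unc5d lie to the right and Sema7a, Dcc, Sema3c, Plxna4 and Plxna2 to the left in all 4 conditions.

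Among the semaphorins 3 of 12 fell and none rose in untreated cultures. Sema7a, a ligand that promotes axon growth through integrins and also binds plexin C1, stood at 155, 151, 126 and 152 CPM in the 6 h libraries and at 59.3, 94.0, 38.6 and 65.1 CPM at 5 d. The groups did not overlap, although the 5 d libraries differed among themselves by more than the 6 h libraries. Its log2 fold change was -1.21 ± 0.17 (SE, adjusted p = 4.8e-07). Sema3c, a secreted semaphorin with attractive effects on cortical axons, went from 72.3, 66.7, 55.4 and 65.3 CPM to 31.3, 32.5, 30.0 and 35.2 CPM. The 5 d libraries of Sema3c lay close together and far below those at 6 h (log2 fold change -1.03 ± 0.11, adjusted p = 4.2e-09). Sema3f, a repellent that signals through neuropilin 2, fell by 0.82 on the log2 scale (SE 0.09, adjusted p = 1.3e-08), from 31.6, 24.7, 32.9 and 28.7 CPM to 15.3, 18.1, 16.01 and 18.7 CPM.

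Of the 9 plexins and neuropilins, Plxnc1 rose and Plxna4 and Plxna2 fell. Plxnc1 encodes the receptor of Sema7a. Its libraries held 86.7, 77.3, 99.8 and 86.5 CPM at 6 h and 258, 330, 227 and 301 CPM at 5 d, so that the groups lay far apart. The log2 fold change of 1.64 ± 0.14 (adjusted p = 2.9e-11) was the largest of the 47. Per length, Plxnc1 rose from 10.5 ± 1.1 CPM per kb, last of the listed genes of its family, to 33.4 ± 5.5, second to Plxna1 (50.1 ± 7.7), whose libraries it overlapped. Plxnc1 shares exon sequence on the same strand with the gene model Gm48718, and its count is uncertain to that extent. The A-type plexins Plxna4 and Plxna2 transmit class 3 and class 6 semaphorin signals. Plxna4 went from 657, 496, 536 and 544 CPM to 274, 354, 186 and 344 CPM (log2 fold change -0.97 ± 0.17, adjusted p = 1.1e-05). Plxna2 went from 630, 465, 611 and 512 CPM to 268, 390, 233 and 344 CPM (log2 fold change -0.87 ± 0.17, adjusted p = 6.9e-05). In both genes the groups did not overlap, and replicate 3 was the lowest at 5 d.

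The promoters of Plxnc1 and Sema7a are shown because this receptor and its ligand moved in opposite directions. Both are RefSeq windows on GRCm38.p6 from 250 bases before to 50 bases after a start of transcription, at chr10:94944796-94945095 on the minus strand for Plxnc1 and at chr9:57939862-57940161 on the plus strand for Sema7a. Capitals mark matches to the GC box GGGCGG on either strand.
Plxnc1: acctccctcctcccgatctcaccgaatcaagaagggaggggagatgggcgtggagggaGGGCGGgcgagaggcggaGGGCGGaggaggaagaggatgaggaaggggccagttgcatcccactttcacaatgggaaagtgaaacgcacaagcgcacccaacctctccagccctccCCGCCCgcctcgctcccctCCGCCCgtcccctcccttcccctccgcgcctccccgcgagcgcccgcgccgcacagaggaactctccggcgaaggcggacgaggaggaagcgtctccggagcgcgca
Sema7a: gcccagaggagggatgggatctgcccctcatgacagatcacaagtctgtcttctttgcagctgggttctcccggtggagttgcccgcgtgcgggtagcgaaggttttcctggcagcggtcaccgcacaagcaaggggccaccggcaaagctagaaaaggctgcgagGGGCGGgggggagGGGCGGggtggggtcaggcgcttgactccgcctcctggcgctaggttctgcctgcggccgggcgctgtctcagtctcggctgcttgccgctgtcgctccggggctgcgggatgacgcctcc
Plxnc1 held 4 GC box matches and Sema7a 2. Neither window held the TATA box TATAAA, the E box CACGTG or the cyclic AMP response element TGACGTCA, all searched on both strands. A GC box was found in 27 of the 38 guidance genes with a RefSeq window, or 71.1%, and in 35.7% of all 32851 windows. The guidance share counts genes with a match in any of their windows, whereas the share of all counts single windows. They are therefore unlike measures, and so are those of the other motifs below. The GC content of the windows had a median of 64.8% over the matched guidance genes' windows and 52.7% over all. A TATA box was found in 2 of the 38 genes (13.6% of all windows), an E box in 3 (7.15% of all) and the cyclic AMP response element in 0 (1.79% of all).

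Of the netrin receptors, Unc5d rose and Dcc fell. Dcc encodes the receptor through which netrin 1 attracts axons. It stood at 92.1, 70.2, 79.5 and 69.4 CPM at 6 h and at 33.3, 35.05, 32.4 and 37.0 CPM at 5 d (log2 fold change -1.20 ± 0.18, adjusted p = 1.1e-06). Unc5d belongs to the UNC5 receptors, which take part in repulsion by netrin and also bind FLRT proteins. Its libraries moved from 56.8, 55.2, 61.4 and 55.3 CPM to 137, 144, 130 and 161 CPM (log2 fold change 1.30 ± 0.12, adjusted p = 3.5e-10). Neither pair of groups overlapped. Per length, Dcc and Unc5d overlapped at 6 h, at 5.91 ± 0.80 and 6.20 ± 0.32 CPM per kb. At 5 d Dcc was the lowest of the 4 receptors at 2.62 ± 0.15 and Unc5d the highest at 15.5 ± 1.4, the latter without separation from Unc5a (13.1 ± 3.1). The listed netrins, Ntn1 and Ntng1, did not pass the test in untreated cultures, with log2 fold changes of -0.10 and 0.30.

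Robo2 and Robo1, the main neuronal receptors of Slit proteins, both fell. Robo2 went from 347, 271, 344 and 322 CPM to 175, 174, 189 and 166 CPM (log2 fold change -0.89 ± 0.12, adjusted p = 2.1e-07), with no overlap. The change of Robo1 was smaller (log2 fold change -0.59 ± 0.15, adjusted p = 0.0017), from 257 to 360 CPM at 6 h to between 172 and 248 CPM at 5 d. Its call ended without untreated 5 d replicate 1 (-0.48) or 6 h replicate 1 (-0.47), short of the threshold on size. Slit3 was the Slit ligand that rose, from 16.5, 14.3, 14.2 and 12.7 CPM to 26.3, 29.3, 19.7 and 27.4 CPM (log2 fold change 0.81 ± 0.16, adjusted p = 0.00012). Slit1 and Slit2 had log2 fold changes of 0.09 and 0.15 and did not pass. Robo3, a divergent Robo receptor known from commissural axons, had 0.468, 0.284, 0.453 and 0.341 CPM at 6 h and 0.708, 0.869, 0.881 and 0.957 CPM at 5 d (log2 fold change 1.12 ± 0.25, adjusted p = 0.00033). These Robo3 values rest on 9 to 15 counts per library at 6 h and 41 to 57 at 5 d.

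Of the 9 Eph receptors 4 fell and 1 rose, and of the 5 ephrins 2 fell. Epha3 went from 74.0, 66.1, 75.1 and 59.9 CPM to 28.5, 50.9, 35.4 and 41.1 CPM (log2 fold change -0.85 ± 0.20, adjusted p = 0.00051). Ephb2, a receptor of B-type ephrins with a role at synapses, went from 245, 208, 238 and 211 CPM to 135, 148, 103 and 136 CPM (log2 fold change -0.81 ± 0.09, adjusted p = 9.1e-09). Ephb6, an Eph receptor without kinase activity, went from 62.0, 72.2, 62.4 and 65.2 CPM to 45.7, 44.8, 37.0 and 37.0 CPM (log2 fold change -0.70 ± 0.09, adjusted p = 8.1e-08). All 3 were separated between the times. Ephb1 (log2 fold change -0.51 ± 0.12) passed with overlapping libraries, as did Epha6 on the side of the rises (0.64 ± 0.25, adjusted p = 0.030). The 5 d libraries of Epha6 fell into a low pair of 11.9 and 9.47 CPM and a high pair of 20.7 and 19.7 CPM, beside 7.32 to 12.04 CPM at 6 h. Both calls depended on single libraries. That of Ephb1 ended without untreated 5 d replicate 1, 2 or 4 or without 6 h replicate 1 or 3, where its log2 fold change was -0.50 to -0.37 and short of the threshold on size, and also without the filter on low counts (-0.48). That of Epha6 ended without 5 d replicate 2 or 4 or without 6 h replicate 2 (0.50 to 0.54, adjusted p = 0.091 to 0.11, edgeR), and in a fit of the untreated libraries alone (adjusted p = 0.055). The transmembrane ligands Efnb2 and Efnb1 fell by 0.69 and 0.64 on the log2 scale (SE 0.10 for both). Efnb3, the most abundant, did not pass the threshold on size.

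**Figure D3:**
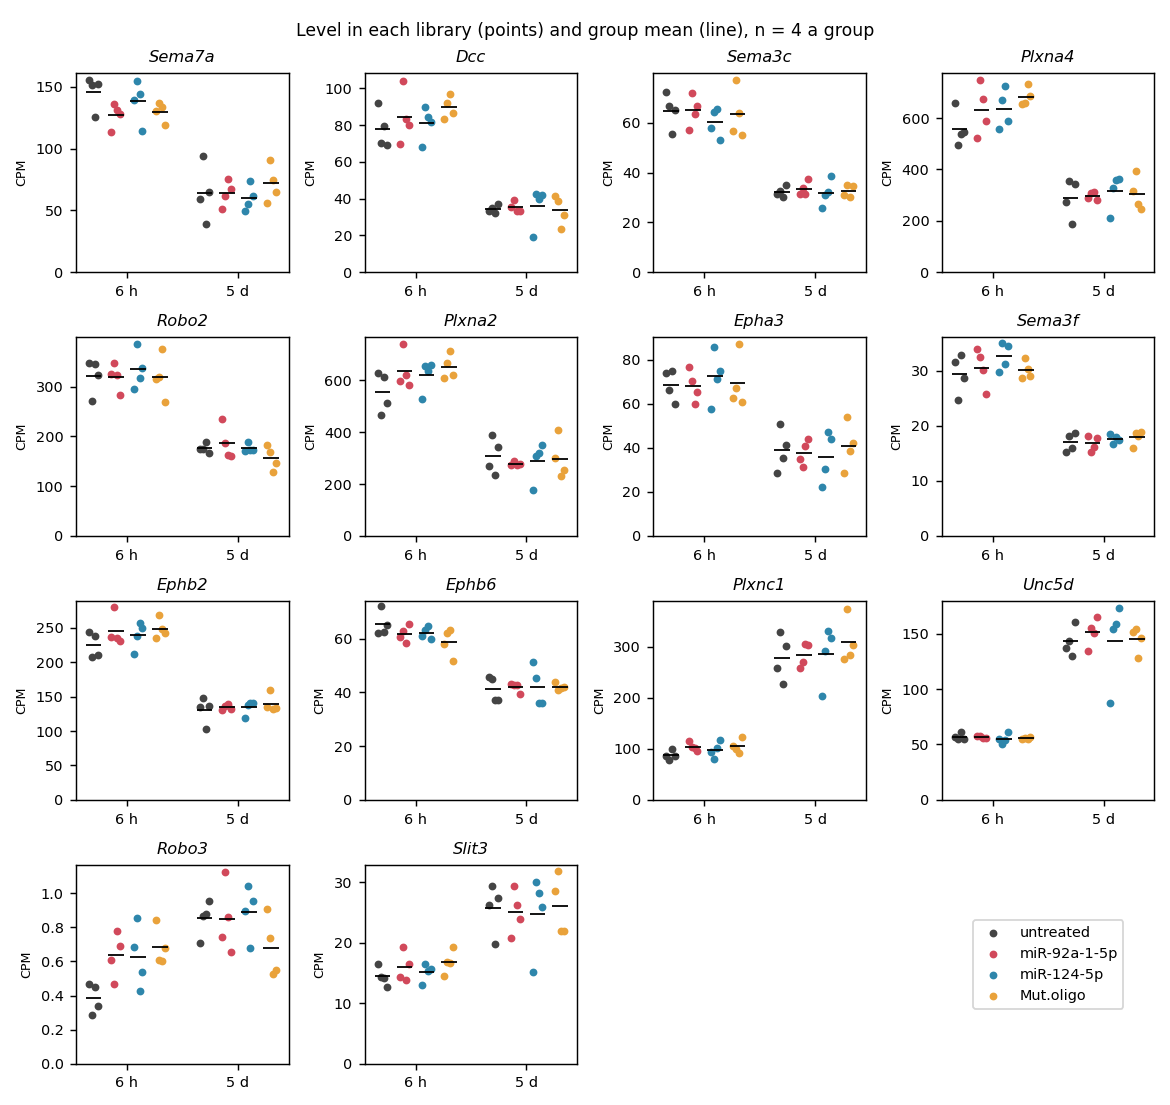
Level (CPM, linear axes from 0) of the 14 genes that passed the test in untreated cultures without overlap, with falls limited to the 10 largest, in each of the 32 libraries by time and condition. Points are libraries and black lines the mean of 4. In Sema7a, Dcc, Plxnc1 and Unc5d the libraries of each condition keep to separate ranges at 6 h and 5 d.

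In untreated cultures the 6 h and 5 d libraries did not overlap for 10 guidance genes on the higher side and 14 on the lower side, that is 24 of 47. Over all genes tested, 25% were higher and 23.1% lower without overlap. Robo1, called lower, was among the separated genes, whereas Ephb1 and Epha6 were not.

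The same time comparison was made in the cultures with each oligoribonucleotide, from separate libraries that share experiment batches with the untreated ones. With miR-92a-1-5p 6 genes rose and 14 fell (18.3% and 15.7% of all genes). With miR-124-5p 5 rose and 17 fell (19.5% and 14.7% of all genes), and with Mut.oligo 5 rose and 14 fell (18.7% and 15.4% of all genes). In all 4 conditions 13 genes fell and 3 rose, and the matching share of all genes was not counted. The 3 were Plxnc1, Unc5d and Slit3, and the 13 were the genes that fell in untreated cultures except Ephb6, whose log2 fold change of -0.49 with Mut.oligo missed the threshold on size. Ephb1 was the least secure of them, since its call also ended with miR-92a-1-5p without 5 d replicate 3 or 6 h replicate 1 or 2 (-0.48 to -0.45) and with miR-124-5p without 5 d replicate 2 or 3 or 6 h replicate 2 or 4 (-0.48 to -0.44). Plxnc1 rose by a log2 fold change of 1.46 to 1.64 across the conditions, Unc5d by 1.30 to 1.42 and Slit3 by 0.62 to 0.81. Dcc ranged from -1.42 with Mut.oligo to -1.17 with miR-124-5p, and Sema7a from -1.21 in untreated cultures to -0.87 with Mut.oligo. No gene passed in opposite directions in 2 conditions, and 22 of the 47 passed in none, again without a count over all genes.

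Epha5 and the secreted semaphorin Sema3d passed as higher in the 3 oligoribonucleotide conditions, at log2 fold changes of 0.56 to 0.63 and 0.73 to 0.98, against 0.44 ± 0.11 and 0.46 ± 0.24 in untreated cultures. Robo3 and Epha6 passed in untreated cultures alone, and Ntng1 as higher with miR-92a-1-5p alone. Epha7 and Unc5c passed as lower with miR-124-5p alone, and Plxna3 with miR-124-5p and Mut.oligo. Each of these lower calls depended on single libraries. Ntng1 gained a call with Mut.oligo without some single libraries. In untreated cultures Epha5 passed without 5 d replicate 3 or 6 h replicate 1 or 3 (0.51 to 0.53), and Sema3d without 5 d replicate 3 (0.65). Without 1 library, Sema3d lost its call with miR-124-5p (5 d replicate 4, adjusted p = 0.057, edgeR), Epha6 gained one there (5 d replicate 1, log2 fold change 0.78), and so did Robo3 (5 d replicate 3 or 6 h replicate 1 or 2, log2 fold changes of 0.61 to 0.75). None of these differences between conditions passed its own test. The test of the difference, the change from untreated at 5 d minus that at 6 h, called 0 of 47 genes for each oligoribonucleotide (beside 0% of all genes each time). At an unadjusted p under 0.05 it gave 2 guidance genes for miR-92a-1-5p, 0 for miR-124-5p and 2 for Mut.oligo. The farthest was Robo3 with Mut.oligo, at -1.13 ± 0.35 on the log2 scale (95% interval -1.83 to -0.42, adjusted p = 0.86), and it rests on the low counts given above.

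Cell type markers also differed between the 6 h and 5 d libraries, which came from different experiment batches. All 9 astrocyte markers were higher at 5 d in untreated cultures, and their summed level went from 461 to 776 CPM at 6 h to between 1929 and 3176 CPM at 5 d. All 8 markers of cycling cells fell, from a sum of 271 to 416 CPM to one of 134 to 144 CPM. The 12 neuron markers summed to 5551 to 6116 CPM and 4902 to 6752 CPM, with 2 higher (Slc17a7 and Syt1) and 2 lower (Nefm and Tubb3). Of 9 oligodendrocyte lineage markers 4 were lower, with sums of 157 to 287 CPM at 6 h and 170 to 206 CPM at 5 d. One of them, Mog, had 147 to 192 counts in the untreated libraries at 6 h and at most 1 count at 5 d. Microglia markers (2 of 10 higher) summed to 11.3 to 22.9 CPM and 15.5 to 28.8 CPM, and endothelial markers (1 of 7 tested higher) to 2.90 to 8.78 CPM and 6.34 to 11.3 CPM. Of the endothelial markers, Tie1 was at 0 counts in all 4 libraries at 6 h. Mural and fibroblast markers (3 of 10 higher, 1 lower) summed to 40.7 to 189 CPM and 82.5 to 144 CPM. The part of these cells in the guidance gene changes was not tested.

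Within the 5 d libraries the astrocyte sum followed the experiment batch. It was 2601 to 3176 CPM in the 7 libraries of 3 batches and 1774 to 2124 CPM in the 9 libraries of the other 3. Untreated replicates 1 and 3 belonged to the former, at 3172 and 3176 CPM, and they held the lower 5 d values of Sema7a, Plxna4, Plxna2, Epha3, Plxnc1 and Slit3. The same held for Dcc, Sema3c, Sema3f, Ephb2 and Unc5d, but not for Robo2, Ephb6 or Robo3. Their neuron marker sums were also the lower ones, 5564 and 4902 CPM, beside 6752 and 6034 CPM in untreated 5 d replicates 2 and 4. Without those 3 batches, 13 guidance genes fell and 9 rose in untreated cultures, in place of 14 and 5. The 4 gained on the higher side were Epha5, Plxna1, Sema3d and Sema6a, and all 5 of the former remained. On the lower side Efnb1 and Robo1 were lost and Sema3e gained. Without untreated 5 d replicate 3 alone, 8 rose and 14 fell. No share of all genes is given for either of these fits, so the counts cannot be set beside a background. The changes of Plxnc1 (1.85 ± 0.12), Unc5d (1.41 ± 0.07), Sema7a (-0.88 ± 0.14), Plxna4 (-0.68 ± 0.15) and Dcc (-1.11 ± 0.16) were called with and without these batches.

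Other genes of the same pathways were taken from 2 further lists. Of 33 other guidance family genes 30 were tested, and 3 were higher and 9 lower in untreated cultures at 5 d (median log2 fold change -0.12). Over all 20425 genes tested in that comparison, 19.1% were called higher and 14.3% lower. Efna4, an A-type ephrin, fell by 1.51, Ntng2 by 1.21 and Epha1 by 2.41 on the log2 scale, and Epha10, an Eph receptor without kinase activity, rose by 1.24. Of 40 genes of guidance signalling and adhesion, 4 were higher and 7 lower (median -0.10), beside the same shares of all genes. The adhesion molecule Cntn2, known from outgrowing axons, fell by 1.70, the Rac exchange factor Vav3 by 0.83 and the adaptor Nck2 by 0.80, and Dock1, another Rac exchange factor, rose by 0.88.

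None of the oligoribonucleotides gave a called change in a guidance gene against untreated cultures of the same time. At 6 h, 0 of 47 passed with each of the 3, beside 0% of 18755 genes tested in each (edgeR). DESeq2 called 0 of the 47 as well, beside 0.0533% of all genes for Mut.oligo and 0% for either microRNA sequence. At an unadjusted p under 0.05 there were 6, 3 and 12 guidance genes, that is 12.8%, 6.38% and 25.5%, beside 4.75%, 4.54% and 9.49% of all genes. At 5 d the called guidance genes were again 0 of 47 for all 3, beside 0% of 19333 genes for Mut.oligo and miR-124-5p and 0.00517% for miR-92a-1-5p. DESeq2 again called 0 of the 47 for each, beside 0.15%, 0% and 0.0155% of all genes. With the experiment batch added, DESeq2 called none of the 47. Among all genes it called more in each comparison except Mut.oligo at 6 h, where it called fewer. Its shares were 0.139%, 0.00533% and 0.0427% of all genes at 6 h and 0.61%, 0.0879% and 0.0879% at 5 d, with Mut.oligo last and miR-92a-1-5p first. In edgeR an unadjusted p under 0.05 was reached at 5 d by 1, 0 and 0 guidance genes. The 3 comparisons of a time point share their untreated libraries.

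At 6 h the 95% interval of the log2 fold change lay within 0.5 of 0 for 43 of 47 genes with miR-92a-1-5p, 45 with miR-124-5p and 42 with Mut.oligo. Robo3 and Ntng1 were outside in all 3. At 5 d the interval lay within those bounds for 40, 38 and 38 genes. The interval reached past the threshold in all 3 for Epha3, Epha4, Epha6, Sema3d and Sema3e.

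**Figure D4:**
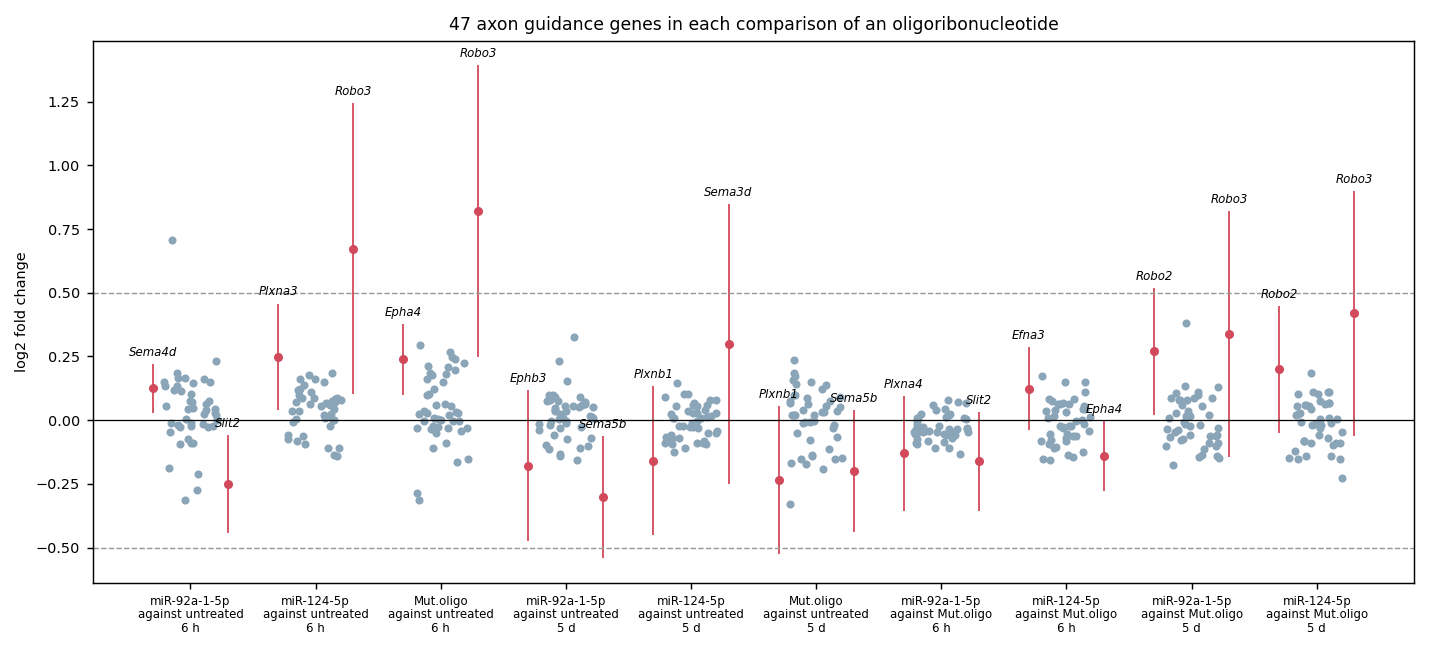
Log2 fold change of the 47 axon guidance genes in the 10 comparisons of an oligoribonucleotide with untreated or Mut.oligo cultures. Each point is 1 gene, red points with 95% intervals are the 2 genes with the smallest unadjusted p in that comparison, and dashed lines mark 0.5 in either direction. None passed the test, and of all points past 0.5 each is Robo3 at 6 h.

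The 2 genes with the smallest p in each comparison did not pass the test, and their values are given as such. With miR-92a-1-5p at 6 h they were Slit2 and Sema4d, both carriers of the seed match printed above. Slit2, a Slit ligand, had 38.6, 47.4, 49.7 and 49.1 CPM against 59.5, 55.8, 50.5 and 52.5 CPM in untreated libraries (log2 fold change -0.25, 95% interval -0.44 to -0.06, adjusted p = 1.0). Sema4d, a transmembrane semaphorin that binds plexin B1, had 37.8, 38.6, 37.3 and 37.3 CPM against 34.8, 32.3, 36.1 and 34.0 CPM (log2 fold change 0.12, 95% interval 0.03 to 0.22, adjusted p = 1.0). Both sets of libraries were separated, in opposite directions. Over the 8 genes with a match the log2 fold change with miR-92a-1-5p had a median of 0.07 at 6 h and 0.02 at 5 d, and over the 39 others 0.03 and 0.01.

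With miR-124-5p at 6 h the smallest p belonged to Plxna3 (155, 190, 190 and 176 CPM against 168, 125, 165 and 140 CPM) and Robo3, with log2 fold changes of 0.25 (95% interval 0.04 to 0.46) and 0.67 (0.10 to 1.25). With Mut.oligo at 6 h it belonged to Epha4, an Eph receptor for both classes of ephrin, and Robo3. Epha4 had 209, 228, 216 and 227 CPM against 208, 169, 187 and 184 CPM (log2 fold change 0.24, 95% interval 0.10 to 0.38, adjusted p = 0.31). Robo3 had 0.842, 0.608, 0.605 and 0.681 CPM against 0.468, 0.284, 0.453 and 0.341 CPM (log2 fold change 0.82, 95% interval 0.25 to 1.39, adjusted p = 0.39). Its untreated level was the lowest of the 8 groups, and its fold change at 6 h was 0.71 with miR-92a-1-5p.

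At 5 d the smallest p with miR-92a-1-5p was that of Sema5b, a transmembrane semaphorin with repellent effects, with 27.5, 24.7, 19.7 and 22.9 CPM against 28.6, 28.7, 30.5 and 30.6 CPM (log2 fold change -0.30, 95% interval -0.54 to -0.06, adjusted p = 1.0). Its libraries did not overlap. With Mut.oligo Sema5b had 27.4, 26.6, 22.1 and 27.0 CPM (log2 fold change -0.20, 95% interval -0.44 to 0.04). Ephb3, the other gene for miR-92a-1-5p, had a log2 fold change of -0.18 (95% interval -0.48 to 0.12). Plxnb1, the plexin that binds Sema4d, had -0.16 (-0.45 to 0.13) with miR-124-5p and -0.24 (-0.53 to 0.06) with Mut.oligo, and Sema3d had 0.30 (-0.25 to 0.85) with miR-124-5p.

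Against Mut.oligo, which asks whether a response depends on the sequence of the oligoribonucleotide, 0 of 47 genes passed for either microRNA sequence at 6 h or at 5 d (0% of all genes in each of the 4). At an unadjusted p under 0.05 miR-92a-1-5p had 0 guidance genes at 6 h and 1 at 5 d, whereas miR-124-5p had 1 and 0. With the batch as a covariate miR-92a-1-5p had 0 and 9 in edgeR and miR-124-5p 4 and 0, without a share of all genes. For miR-92a-1-5p the smallest p at 6 h belonged to Slit2 (log2 fold change -0.16, 95% interval -0.36 to 0.03) and Plxna4 (-0.13, -0.36 to 0.10). At 5 d it belonged to Robo2 (0.27, 0.02 to 0.52) and Robo3 (0.34, -0.15 to 0.82). For miR-124-5p Epha4 (-0.14, -0.28 to -0.0032) and Efna3 (0.12, -0.04 to 0.29) came first at 6 h, and Robo3 (0.42, -0.06 to 0.90) and Robo2 (0.20, -0.05 to 0.45) at 5 d. The interval lay within 0.5 of 0 for 46 and 44 genes at 6 h and for 36 and 38 at 5 d.

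At 6 h each of the 4 miR-92a-1-5p libraries shared its batch with an untreated library, which allowed a comparison within batches. The level of Sema7a was lower in all 4 pairs, with log2 differences of -0.23 to -0.14, and that of Plxnc1 was higher in all 4, with differences of 0.21 to 0.30. With the batch as a covariate the adjusted p was 0.0054 for Sema7a (log2 fold change -0.21 ± 0.03) and 0.026 for Plxnc1 (0.24 ± 0.05). Both remained below the threshold on size, so neither was called. In that fit 1.06% of all genes and 2 of 47 guidance genes had an adjusted p under 0.05. Without the covariate the fold changes were -0.21 and 0.23, and the libraries of the 2 groups overlapped for both genes. Slit2 was lower and Sema4d higher in 4 of 4 batches, with adjusted p of 0.079 and 0.16. In all, 11 of 47 guidance genes (23.4%) were higher and 8 (17.02%) lower in each of the 4 batches, beside 14.7% and 9.81% of all genes. Others among the lower ones were Ntng1, with differences of -0.42 to -0.20 and a mean of -0.29 beside -0.20 for Sema7a, and Sema3e, with differences of -0.32 to -0.11. Epha4, Slit1 and Plxna3 were among the higher ones. These 5 were chosen after their values were seen, and none had an adjusted p under 0.05 in the fit with the batch.

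With Mut.oligo at 6 h Sema7a had an adjusted p of 0.029 in the fit with the batch (log2 fold change -0.24 ± 0.04), 1 of 47 beside 0.064% of all genes, and it was lower in both batches that could be compared. The 2 batches shared with miR-124-5p gave Sema7a differences of -0.13 and -0.13. Plxnc1 was higher in both batches for Mut.oligo and for miR-124-5p, by 0.09 to 0.30. All of these comparisons share their untreated libraries. At 5 d the within-batch differences of Sema7a ran from -0.10 to 0.05 over 7 pairs and those of Plxnc1 from 0.01 to 0.18. The fits with the batch gave no guidance gene an adjusted p under 0.05 in the other 8 comparisons. Over all genes those fits passed 0.512% for miR-92a-1-5p, 0.0259% for miR-124-5p and 0.0517% for Mut.oligo against untreated at 5 d, 0.0103% for miR-92a-1-5p against Mut.oligo at 5 d, and 0% in the rest.

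**Figure D5:**
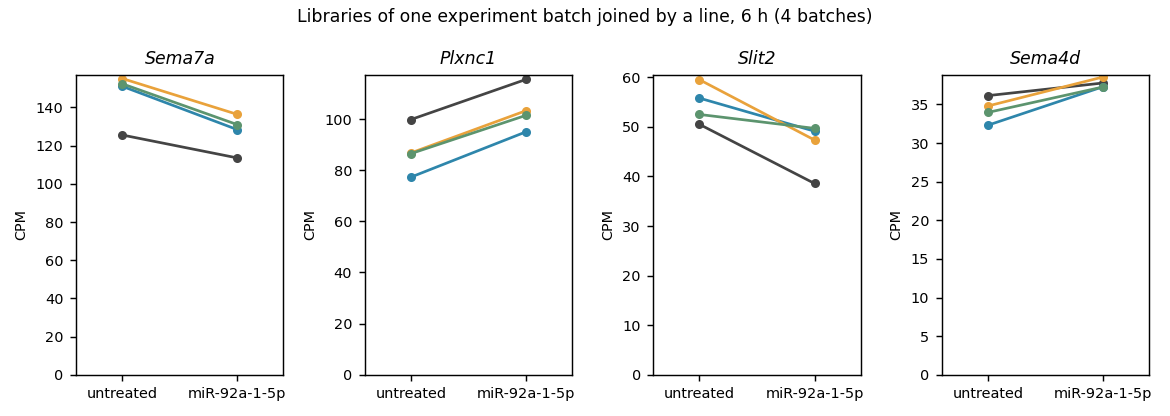
Level (CPM, axes from 0) of Sema7a, Plxnc1, Slit2 and Sema4d in untreated and miR-92a-1-5p cultures at 6 h. Each line joins the 2 libraries of 1 experiment batch, 4 batches in all. Sema7a and Slit2 go down and Plxnc1 and Sema4d up in each of the 4.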

How the data were processed

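RNA of 32 cultures (TruSeq Stranded mRNA, single-end) was aligned by the authors to GRCm38 with STAR and counted per gene on the stated strand with featureCounts of Subread. The authors deposited whole-number counts per gene, not normalized, as 1 table of 49671 genes, of which 345 had no symbol. Groups, times, replicate numbers and experiment batches were taken from the labels, and nothing in them says whether replicates were separate animals, so p-values measure the spread between these cultures. The members and lists were chosen with earlier results of these data known.

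Genes that reached 5 counts in 3 or more libraries were tested with edgeR 4.0.16 in R 4.3.3 (TMM normalization, quasi-likelihood test, Benjamini-Hochberg adjustment over all genes tested). A call needed an adjusted p below 0.05 together with a change of more than 0.5, up or down, on the log2 scale. Comparisons with untreated or Mut.oligo used the 16 libraries of a time point without a covariate, since the study's methods name none, and time comparisons used all 32. DESeq2 1.42.0, RLE size factors, other filters, the batch as a covariate and the omission of each replicate were tried as alternatives. Another 2 were added after the data were seen, namely the batch covariate without a fold threshold and the omission of 3 batches. CPM values are counts scaled to the TMM-normalized library size, and intervals are 95% intervals of the fit. The scripts were tested on simulated data. Exon lengths came from GENCODE M21, another release than the authors used.

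Values in every library were given by a rule. For untreated cultures over time it took the called genes with separated libraries, up to 10 falls and 10 rises. For each oligoribonucleotide comparison it took the called genes or, where there was none, the 2 with the smallest p. From each further list it took called genes, up to 4. Family leaders were named for their level. Other guidance genes named beside them, such as Robo1, Efnb1, Efnb2, Ephb1, Epha6, Epha5 and Sema3d, were called in some condition or complete a family, and were chosen after their values were seen.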

Additional observations from a re-analysis of the deposited data

Results flagged for a closer look

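One result stood out among the values of single libraries. Sema7a in untreated 6 h replicate 3, at 126 CPM, lay far below the other 3 untreated libraries at 6 h, which held 151 to 155 CPM. Its gap to the nearest library was 0.862 of the range of the group. The check was run on 28 sets of 4 libraries, the untreated values of the 14 genes given library by library, and 1 set stood out. Chance alone gives about 1 in 20. The libraries with miR-92a-1-5p or with miR-124-5p from the same experiment batch also had low Sema7a values, 114 and 114 CPM.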

How the results depend on the processing

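The counts of guidance genes called in each of 17 comparisons and in each direction were recomputed under the alternatives, and 615 of 626 recomputed counts stayed within 1.5 times the original. Outside the comparisons of 5 d with 6 h every original count was 0, and almost no gene of the whole table was called. Those counts had little room to move, so the total says little about the stability of calls. The 527 recomputed fold changes of the genes named by rule all kept their direction, and none gained or lost a call while the gene was still tested. Leaving out 1 library did carry some uncalled values across 0.5 in size with an adjusted p still above 0.05. Robo3 with miR-124-5p at 6 h ranged from 0.48 to 0.83, Robo3 against Mut.oligo at 5 d reached 0.60 for miR-124-5p and 0.52 for miR-92a-1-5p, and Sema3d with miR-124-5p at 5 d reached 0.51. For the change from 6 h to 5 d, dropping the threshold on size gave 11 higher in untreated cultures, 11 with miR-92a-1-5p, 10 with miR-124-5p and 12 with Mut.oligo, where 22 were lower, since that alternative counts smaller changes. Without the 3 batches of high astrocyte markers, 9 were higher in untreated cultures and 8 with miR-124-5p, and the cause was not tested. No share of all genes is given beside these counts. Leaving out 1 replicate gave 4 to 8 higher and 12 to 15 lower in untreated cultures, the 8 without untreated 5 d replicate 3. With the batch as a covariate and no threshold on size, 1 guidance gene was higher and 1 lower for miR-92a-1-5p at 6 h and 1 lower for Mut.oligo at 6 h, in place of 0.

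Replicate numbers did not pair the samples: same-numbered libraries of a time point had correlations of -0.22 to 0.41 in their deviations from the group means, and 8 of 32 libraries correlated best with one of their own number. With the replicate block 5 guidance genes were higher and 14 lower in untreated cultures at 5 d, and for miR-124-5p 5 and 18 in place of 5 and 17. Libraries of the same experiment batch had correlations of 0.04 to 0.41. Depth limits Robo3 most, with 9 to 15 counts in untreated libraries at 6 h, and it dropped out of the test when at least 10 counts were asked of every library. That left 4 guidance genes higher in untreated cultures at 5 d in place of 5.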
